A study of Homo sapiens with 6 samples.

Results

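The mRNAs of 30 genes of cholesterol synthesis and sterol sensing were followed after cDCBLD2 knockdown in sorafenib-resistant hepatocellular carcinoma (HCC) cells. The genes were selected by function, as mevalonate and sterol synthesis enzymes, the machinery that senses sterols, and proteins of cholesterol uptake and handling. They were chosen with results of the same knockdown known, since INSIG1 was already seen among the lowered genes. The values of these 30 genes in that comparison are therefore a description. No p-value is printed for them, and the genes counted or named as past a threshold only describe the list. All 30 were found among the 38637 genes of the expression table.

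cDCBLD2 is a circular RNA made from the DCBLD2 gene, and the study asked which mRNAs depend on it in cells that resist sorafenib, a multikinase inhibitor. HCCLM3-SR is a resistant line raised from the HCC line HCCLM3 by long exposure to slowly rising sorafenib. PolyA-Seq, the sequencing of polyadenylated RNA, was done on 3 libraries of cells that received an siRNA to cDCBLD2 and 3 libraries of cells that received a control siRNA. Both groups were kept in 5 µM sorafenib, and the siRNA acted for 3 days. The design thus holds a single resistant line and a single siRNA against the circRNA, and it has no group without sorafenib. The labels number the libraries of each group from 1 to 3 without saying whether they came from separate cultures, so the errors and p-values measure only the spread between these libraries.

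Cholesterol is built from acetyl-CoA through mevalonate, isoprenoid diphosphates and squalene, and its synthesis is switched on by the transcription factor SREBP2, the product of SREBF2. SREBP2 is held in the endoplasmic reticulum with its escort SCAP. When membranes are rich in sterol, the INSIG proteins keep SCAP there. When sterol is low, SCAP carries SREBP2 to the Golgi, where the proteases encoded by MBTPS1 and MBTPS2 cut it and its free end enters the nucleus. INSIG1 is itself a target of SREBP2, whereas INSIG2 is known as the form that depends less on it. Hepatocytes are a main site of cholesterol synthesis.

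The authors deposited an abundance per gene in TPM, a unit that corrects reads for gene length and gives every library the same total. Whole reads recovered from the ratios of these values came to between 17489570 and 23059351 per library, which are lower bounds. The 30 genes had between 73 and 8880 recovered reads in any library. Differences are log2 fold changes of knockdown minus control on log2(TPM + 1), which understates the change of low genes. They were fitted with limma over the 13980 genes whose mean reached 1 TPM, and all 30 genes passed this filter. Libraries that share a number were alike in how they departed from the mean of their group, and those numbered 1 the most (Pearson's r 0.56, 0.343 and 0.362 across genes for numbers 1, 2 and 3). Departures within a group cancel out, so likeness of the libraries numbered 1 alone would also give a positive r for numbers 2 and 3. Libraries of unlike number were not compared, so these r values do not show pairing of numbers 2 and 3. A fit with the replicate number as a block is therefore given beside the fit without it. DCBLD2, the host gene, was at 25.9 to 58.1 TPM after knockdown and 48.5 to 71.5 TPM in control cells, and the groups overlapped. Within same-numbered libraries it was lower in all 3 pairs, by log2 changes of -0.29, -0.88 and -0.67, and its difference of -0.61 passed the threshold with the replicate block only (limma adjusted p of 0.253 without and 0.0139 with it, and 0.0524 with the block and the GC trend removed). Values per gene do not separate the circRNA from the linear mRNA, so they do not check the knockdown itself. The cells expressed the hepatic regulator HNF4A (22.9 to 31.3 TPM) and the epithelial keratin KRT8 (2999 to 4413 TPM), with albumin (ALB) low at 0.189 to 1.58 TPM. Of the markers of other cell types, CD3E was listed at 0 in every library and PTPRC stayed between 0.231 and 0.411 TPM. The summed hepatocyte list, with 4 of 7 genes at 1 TPM or more on average, was at 34.7 to 40.3 TPM after knockdown and 30.9 to 31.8 TPM in control cells, and the epithelial list, with 3 of 4, was at 5861 to 7006 and 4855 to 5657 TPM. The immune list (1 of 3, CD68) was at 96.6 to 125 and 90.4 to 111 TPM, the endothelial list (1 of 3) at 4.43 to 5.13 and 3.75 to 5.76 TPM, and the fibroblast and stellate list (2 of 4) at 7.66 to 17.8 and 5.39 to 6.21 TPM. The hepatocyte, epithelial and fibroblast sums thus lay higher after knockdown in every library, although the hepatocyte sum is mostly HNF4A (mean 29.1 against 23.4 TPM). ALB (mean 0.607 against 1.11 TPM) and APOB (1.64 against 3.44 TPM) went the other way, while AFP, APOA1, TTR and SERPINA1 had higher means. In the epithelial list EPCAM had a lower mean (0.134 against 0.193 TPM). In the fibroblast list COL1A1 differed most (6.16 against 2.21 TPM). Their part in the results was not tested. In RNA from a whole culture, fewer cells that express a gene and less of its RNA per cell cannot be told apart.

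After cDCBLD2 knockdown 26 of the 30 genes had a lower mean and 4 had a higher mean. The median of their log2 fold changes was -0.38, and that of all genes tested was -0.08. INSIG1, the feedback sensor, had the lowest log2 fold change of the list at -1.51. It was followed by MSMO1 (-0.93), IDI1 (-0.91), MBTPS2 (-0.87), HMGCS1 (-0.85) and SQLE (-0.83). TM7SF2, INSIG2, SCAP and PMVK had the higher means. In 20 of the 30 genes all knockdown libraries were lower than all control libraries, a pattern that 22.3% of all genes tested showed. None of the 30 had all knockdown libraries above all control libraries, against 9.58% of all genes. The other 10 genes had overlapping groups.

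At an adjusted p under 0.05, the fit without the block called INSIG1, SQLE and DHCR7 lower, which is 3 of the 30 genes against 0.629% of all genes tested, and called 0 of the 30 higher against 0.25% of all genes. At the unadjusted p under 0.05, 18 of the 30 genes passed in this fit, as did 26.1% of all genes. With the additional condition of a log2 fold change under -1, only INSIG1 remained, where 0.0787% of all genes passed both thresholds. With the replicate block, 20 of the 30 genes were called lower and 1, TM7SF2, was called higher, against 25% and 9.94% of all genes. INSIG1 was again the gene past both thresholds, and 0.751% of all genes were past both in that fit. The counts without the block turned on single libraries. Without knockdown replicate 1 the fit called 19 of the 30 genes lower and 0 higher, where it called 19.8% of all genes lower and 4.64% higher. Each of the other 5 fits that leave out a library called 0 genes in the whole table, so their counts of 0 say nothing about these genes. In those fits 14 to 18 of the 30 genes were at an unadjusted p under 0.05, against 15.5% to 20.1% of all genes. With the block and without both libraries numbered 1, an alternative chosen after seeing the data, 20 genes were lower and 1 was higher, against 28% and 11.3% of all genes. Scaling each library to its upper quartile turned the split of all genes called without the block from 88 lower and 35 higher to 62 lower and 59 higher, which is 0.443% and 0.422% of them, and called 2 of the 30 genes lower, INSIG1 and SQLE. Because the genes were chosen with this comparison known, these counts are no evidence for the pathway.

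**Figure D1:**
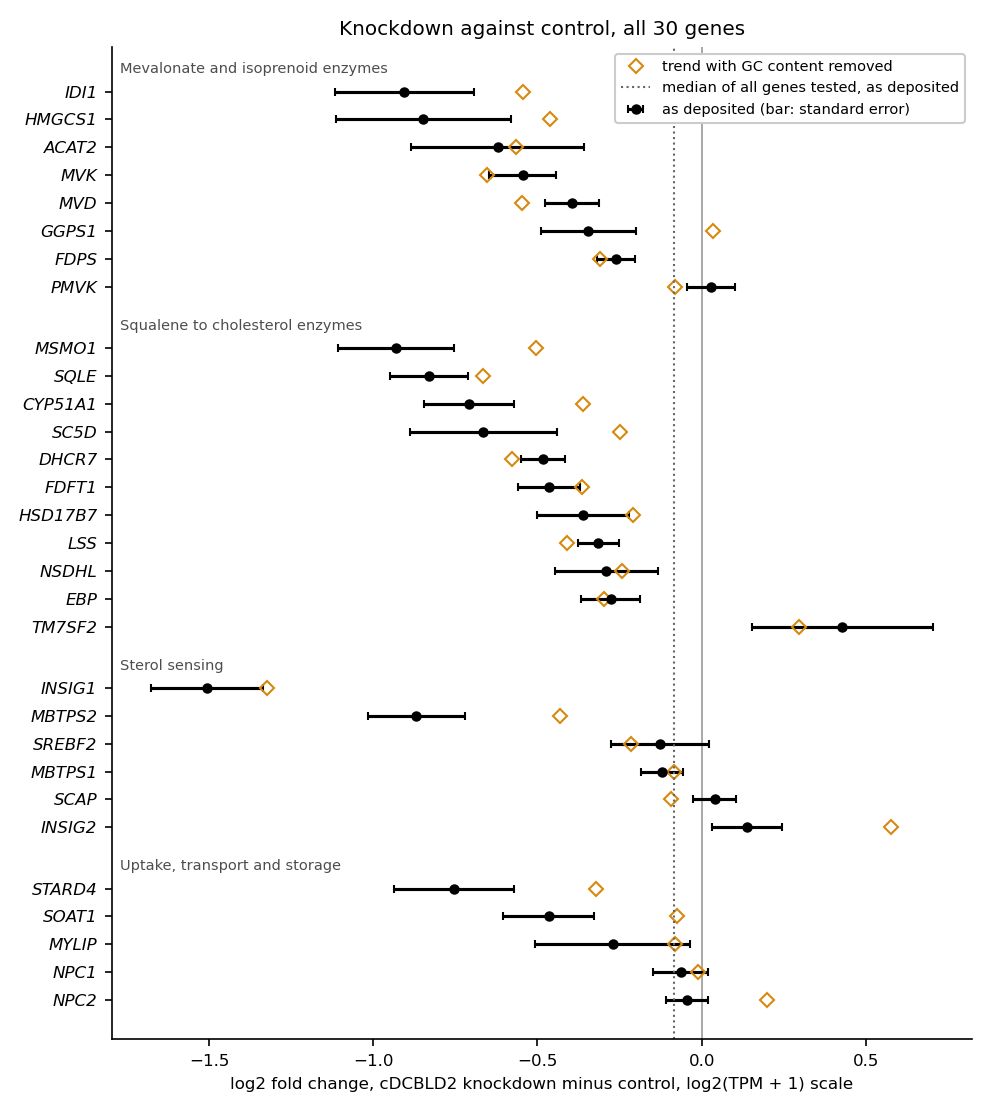
Log2 fold change of the 30 genes, cDCBLD2 knockdown minus control, on the log2(TPM + 1) scale (horizontal axis), grouped by role; filled points with bars are the fit without the block and its standard error, open diamonds the values with each library's GC trend removed, and the dotted line the median of all genes tested. INSIG1 lies furthest to the left at -1.51, most enzymes lie left of the dotted line, and TM7SF2 lies furthest to the right at 0.43 among the filled points.

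The sensing genes moved unequally, and the spread among the 6 of them was the widest of any role. INSIG1 (chromosome 7, 155297776 to 155310235, plus strand, GRCh38, GENCODE release 29) encodes the sensor that retains SCAP. In replicates 1, 2 and 3 the INSIG1 mRNA reached 34.8, 53.9 and 44.0 TPM after knockdown and 109, 136 and 134 TPM with control siRNA. The values of the other genes below follow the same order of replicates. Every knockdown library held less than the lowest control library. The means of 44.2 ± 9.55 TPM after knockdown and 126 ± 15.4 TPM in control cells (SD, n = 3) had a ratio of 0.351, and the standard error of the log2 fold change was 0.17. This was the 20th lowest log2 fold change among the 13980 genes tested. Within same-numbered libraries the log2 change was -1.61, -1.32 and -1.58, so that the size differed little between replicate numbers. INSIG1 had the lowest value of the 30 genes in all 16 settings tried, between -1.66 and -1.32.

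INSIG2 (chromosome 2, 118088452 to 118110997, plus strand), the paralogue of INSIG1, was at 15.7, 16.1 and 17.7 TPM after knockdown and 13.6, 14.4 and 16.7 TPM in control cells. The groups overlapped, and the log2 fold change was 0.14 (standard error 0.11). Control cells held more INSIG1 than INSIG2 mRNA per length, with means of 126 and 14.9 TPM, and the means were 44.2 and 16.5 TPM after knockdown. SCAP, the escort that the INSIG proteins hold back, was at 109, 117 and 122 TPM after knockdown and 111, 113 and 114 TPM in control cells. Its values overlapped and differed by 0.04 on the log2 scale (standard error 0.07). SREBF2, which encodes SREBP2, was at 70.0, 97.1 and 95.3 TPM after knockdown and 82.9, 102 and 99.8 TPM in control cells. Replicate 1 was the lowest library of either group, and the mean difference of -0.13 was within its standard error of 0.15. Within same-numbered libraries SREBF2 was lower in all 3 pairs, by -0.24, -0.07 and -0.07, and it was at -0.22 with the GC trend removed.

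The proteases of SREBP2 differed from each other. MBTPS2 (chromosome X, 21839636 to 21885424, plus strand), the intramembrane protease that makes the final cut, was at 20.1, 14.2 and 15.1 TPM after knockdown and 34.3, 28.7 and 29.1 TPM in control cells. Its groups did not overlap, and the means of 16.5 ± 3.19 and 30.7 ± 3.13 TPM (SD, n = 3) gave a log2 fold change of -0.87 (standard error 0.15). MBTPS1, the protease that cuts before it, was at 91.3, 99.1 and 96.8 TPM after knockdown and 102, 103 and 108 TPM in control cells. Those groups were also apart, but by a log2 fold change of -0.12 (standard error 0.06). MBTPS2 shares 1093 exon bases with YY2, a gene on its own strand, so reads of the pair cannot be told apart in those bases.

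**Figure D2:**
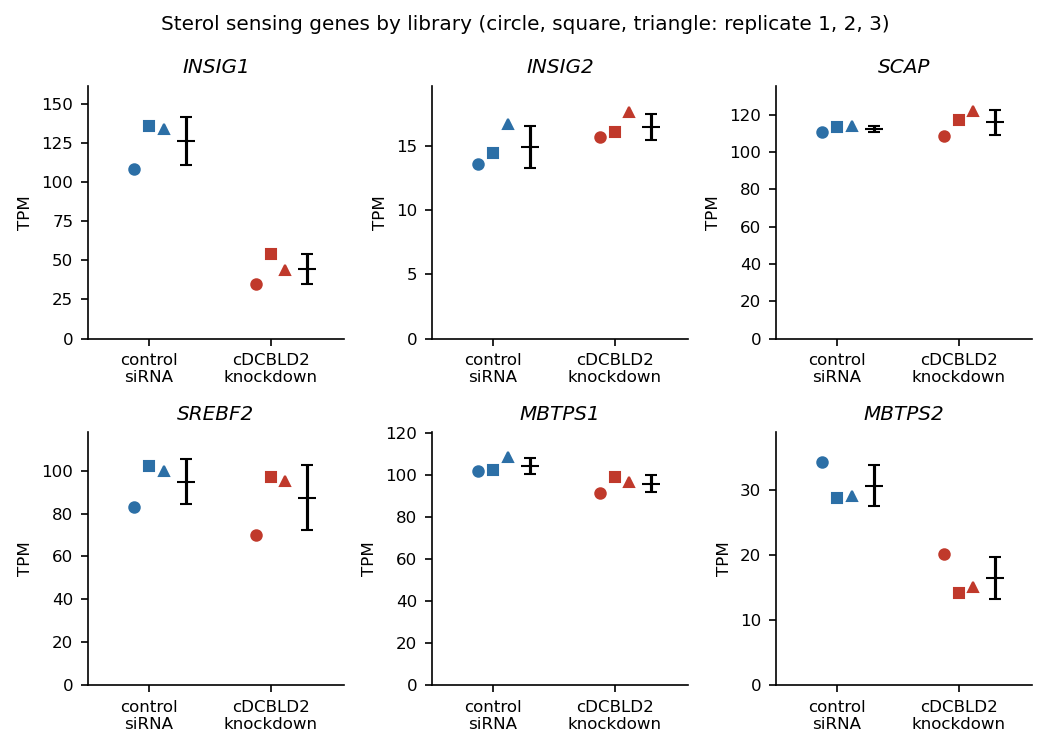
TPM (vertical axes, each from 0) of the 6 sterol sensing genes in the 3 control siRNA and 3 cDCBLD2 knockdown libraries, with symbols for replicate numbers and bars for mean ± SD. For INSIG1 and MBTPS2 all knockdown points lie clearly below the control points, for MBTPS1 they lie just below, and for INSIG2, SCAP and SREBF2 the groups overlap.

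Stretches before the starts of 5 of the lowered genes are given to show what letters stand there, from the RefSeq promoter table (GRCh38.p14), cut to bases that hold no exon in GENCODE release 29. They are written 5′ to 3′ on the gene's strand, and capitals mark CCAAT or its reverse complement ATTGG, the letters bound by the factor NF-Y, a known partner of SREBP at sterol genes. The first 4 belong to genes with the motif, and MBTPS2 is shown as a lowered gene without it.
INSIG1 promoter, chr7:155297628-155297775 (+): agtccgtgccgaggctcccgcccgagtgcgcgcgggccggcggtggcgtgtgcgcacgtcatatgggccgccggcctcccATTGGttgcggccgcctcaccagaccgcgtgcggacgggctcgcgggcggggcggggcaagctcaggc
MSMO1 promoter, chr4:165327419-165327622 (+): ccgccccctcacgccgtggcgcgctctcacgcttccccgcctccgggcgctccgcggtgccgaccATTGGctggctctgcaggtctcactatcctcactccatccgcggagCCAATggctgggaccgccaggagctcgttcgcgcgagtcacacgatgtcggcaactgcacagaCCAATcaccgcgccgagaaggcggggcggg
HMGCS1 promoter, chr5:43313513-43313662 (-): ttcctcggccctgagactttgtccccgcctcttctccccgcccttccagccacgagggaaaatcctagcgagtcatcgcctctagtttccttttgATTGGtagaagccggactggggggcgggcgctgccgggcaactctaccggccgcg
STARD4 promoter, chr5:111512591-111512785 (-): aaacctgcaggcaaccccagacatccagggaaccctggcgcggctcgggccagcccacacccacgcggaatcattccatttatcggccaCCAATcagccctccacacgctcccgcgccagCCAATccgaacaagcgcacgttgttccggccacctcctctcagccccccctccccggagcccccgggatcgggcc
MBTPS2 promoter, chrX:21839367-21839616 (+): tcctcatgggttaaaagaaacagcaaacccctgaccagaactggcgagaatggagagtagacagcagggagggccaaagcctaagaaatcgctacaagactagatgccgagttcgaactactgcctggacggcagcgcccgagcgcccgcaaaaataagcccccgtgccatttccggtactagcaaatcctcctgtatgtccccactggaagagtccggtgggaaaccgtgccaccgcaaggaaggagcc

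Over the full windows of 250 bases before to 50 bases after a start, 27 of the 30 genes had at least 1 promoter in the table. CCAAT on either strand was in a promoter of 20 of these 27 genes (74.1%), and in 42.7% of the 10508 genes tested that the table holds. Counted by promoter, 22 of the 36 windows of these genes held it (61.1%), against 34.6% of all 35116 windows. Those windows also include genes that were not tested, so this background differs from the one by gene. Among the enzymes 14 of 16 held it (87.5%). The genes without it were PMVK, CYP51A1, INSIG2, SCAP, NPC1, MBTPS1 and MBTPS2, whose log2 fold changes ran from -0.87 to 0.14 with a median of -0.06. The 20 genes with it had a median of -0.38 and ran from -1.51 to 0.43, so both sets held genes that were lower and genes that were not. TCACNCCAC, a form of the sterol regulatory element, was found on either strand in 1 of the 27 genes, SREBF2, and in 1.33% of the genes tested. There it began at position -133 relative to the gene start and the CCAAT match at -106, and the matches did not overlap. Other forms of the element were not searched. A match is only a run of letters in these windows.

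Of the 8 mevalonate and isoprenoid enzymes 7 had a lower mean after knockdown, and the median log2 fold change was -0.47. For 6 of them the groups did not overlap, a pattern that 22.3% of all genes tested showed with knockdown lower. IDI1, the isomerase that interconverts the isoprenoid building blocks, was at 14.3, 9.68 and 7.71 TPM after knockdown and 22.4, 19.5 and 18.5 TPM in control cells. All 3 knockdown libraries lay below the lowest control library, and the log2 fold change was -0.91 (standard error 0.21). HMGCS1, which makes HMG-CoA from acetyl-CoA units, was at 15.6, 7.62 and 7.32 TPM after knockdown and 19.1, 17.1 and 18.1 TPM in control cells. Knockdown replicate 1 stood near the control values and replicates 2 and 3 far below them, and the log2 fold change was -0.85 (standard error 0.27). ACAT2, the cytosolic thiolase at the start of the pathway, was at 64.4, 37.6 and 35.2 TPM after knockdown and 88.6, 62.6 and 57.5 TPM in control cells. Replicate 1 was the highest library in both groups of ACAT2, the groups overlapped, and the log2 fold change was -0.62 (standard error 0.26). The difference held within each pair of same-numbered libraries, at -0.45, -0.72 and -0.69. ACAT2 shares exon bases with SOD2 and TCP1 on the other strand, and whether the counting used strand is not given in the sources used here.

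The other mevalonate enzymes differed less. MVK, mevalonate kinase, had non-overlapping groups and a log2 fold change of -0.54 (standard error 0.10), and MVD, the decarboxylase, had non-overlapping groups and -0.39 (standard error 0.08). FDPS, farnesyl diphosphate synthase, was the most abundant mRNA of the list, with means of 303 ± 2.33 TPM after knockdown and 363 ± 13.0 TPM in control cells (SD, n = 3). Its log2 fold change was -0.26 (standard error 0.06), a small difference between tight groups. GGPS1, which makes geranylgeranyl diphosphate on a side branch, was at -0.35 (standard error 0.14), with the largest difference in replicate 3. GGPS1 shares 1422 exon bases with TBCE on its own strand. PMVK, phosphomevalonate kinase, was the exception of this role, with overlapping means of 90.7 ± 3.55 and 89.0 ± 5.73 TPM (SD, n = 3) and a log2 fold change of 0.03. Its sign turned when the GC trend was removed and when control replicate 1 was left out. FDPS and HSD17B7 have pseudogenes of close sequence, which makes their values uncertain to the extent that reads were shared.

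From squalene to cholesterol, 10 of the 11 enzymes had a lower mean after knockdown, with a median log2 fold change of -0.47. Groups did not overlap for 9 of them, against 22.3% of all genes tested with knockdown lower. MSMO1, the methylsterol oxidase of the demethylation steps, was at 65.8, 45.8 and 39.7 TPM after knockdown and 91.1, 96.9 and 96.7 TPM in control cells. The control libraries lay within 6 TPM of each other while the knockdown libraries spread widely, and the log2 fold change was -0.93 (standard error 0.18). SQLE, squalene epoxidase, was at 228, 186 and 165 TPM after knockdown and 355, 337 and 333 TPM in control cells. These groups were far apart, with means of 193 ± 31.8 and 342 ± 11.4 TPM (SD, n = 3) and a log2 fold change of -0.83 (standard error 0.12). CYP51A1, the lanosterol demethylase, was at 61.8, 45.9 and 43.5 TPM after knockdown and 85.7, 78.3 and 82.3 TPM in control cells. The groups did not overlap, and the log2 fold change was -0.71 (standard error 0.14). CYP51A1 shares 2844 exon bases with AC000120.2 on its own strand, so reads of the pair cannot be told apart in those bases.

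SC5D, the desaturase near the end of the pathway, was low in all libraries (3.90 to 7.86 TPM after knockdown, 8.39 to 10.4 TPM in control cells) and had a log2 fold change of -0.66 (standard error 0.22). DHCR7, a reductase that completes cholesterol, had means of 141 ± 5.89 and 197 ± 8.98 TPM (SD, n = 3) and a log2 fold change of -0.48 (standard error 0.07). FDFT1, squalene synthase, was at -0.47 (standard error 0.09), and HSD17B7, a ketoreductase, at -0.36 (standard error 0.14). LSS, lanosterol synthase, was at -0.31 (standard error 0.06), and EBP, the sterol isomerase, at -0.28 (standard error 0.09). NSDHL, a dehydrogenase of the same demethylation steps as MSMO1, was at -0.29 (standard error 0.16) and was the lowered enzyme of this role whose groups overlapped. Replicate 1 was its highest library in both groups (46.6 TPM after knockdown and 58.2 TPM in control cells).

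TM7SF2, a sterol reductase, was the only one of the 30 genes called higher with the replicate block. TM7SF2 (chromosome 11, 65111845 to 65116384, plus strand) was at 38.0, 57.6 and 57.3 TPM after knockdown and 24.6, 45.5 and 44.9 TPM in control cells. Replicate 1 was the lowest library of each group, so the groups overlapped, and without the block the log2 fold change was 0.43 (standard error 0.28). Within same-numbered libraries it was 0.61, 0.34 and 0.34. LBR, a nuclear membrane protein that can carry out the same reductase step and is not among the 30 genes, moved the other way. LBR was at 30.5, 21.2 and 23.6 TPM after knockdown and 47.4, 36.5 and 35.9 TPM in control cells. Its groups did not overlap. The LBR difference of -0.65 on the log2 scale missed the threshold without the block (limma adjusted p = 0.0888) and passed it with the block (limma adjusted p = 0.00444). With the GC trend removed LBR was at -0.22 and no longer passed with the block (limma adjusted p = 0.0524), TM7SF2 was at 0.30, and the difference between these genes was not tested.

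Summed over the 19 enzymes, the abundance was 1407, 1333 and 1261 TPM after knockdown and 1868, 1797 and 1799 TPM in control cells. The knockdown mean of 1334 ± 73.0 TPM was 73.2% of the control mean of 1821 ± 40.2 TPM (SD, n = 3). The sum was at 81.0% of control for the mevalonate and isoprenoid enzymes and at 69.0% for the enzymes from squalene to cholesterol. SQLE, FDPS and DHCR7 made up much of these sums, which therefore follow the abundant enzymes.

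The 5 genes of uptake, transport and storage differed less than the enzymes, with a median log2 fold change of -0.27. Groups did not overlap for 2 of them, against 22.3% of all genes tested with knockdown lower. STARD4, a soluble carrier of cholesterol, was at 1.69, 0.88 and 1.04 TPM after knockdown and 3.11, 2.59 and 2.34 TPM in control cells. Its groups were apart, at a log2 difference of -0.75 (standard error 0.18), but the gene was the least abundant of the list, with 84 recovered reads in knockdown replicate 2, its lowest count. On the recovered reads, where no pseudocount of 1 TPM enters, its log2 fold change was -1.12. SOAT1, which esterifies cholesterol for storage, was at 18.3, 13.4 and 14.4 TPM after knockdown and 24.1, 19.6 and 20.8 TPM in control cells. The groups did not overlap, and the log2 fold change was -0.47 (standard error 0.14). MYLIP, a ubiquitin ligase that limits lipoprotein uptake and is induced by sterol-activated LXR, was at 8.34, 14.6 and 15.1 TPM after knockdown and 12.7, 15.2 and 17.6 TPM in control cells. Replicate 1 was low in both groups, the groups overlapped, and the log2 fold change was -0.27 (standard error 0.24). NPC1 and NPC2, which move cholesterol out of lysosomes, had overlapping groups and log2 fold changes of -0.06 (standard error 0.08) and -0.04 (standard error 0.06), and both turned sign under upper-quartile scaling.

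**Figure D3:**
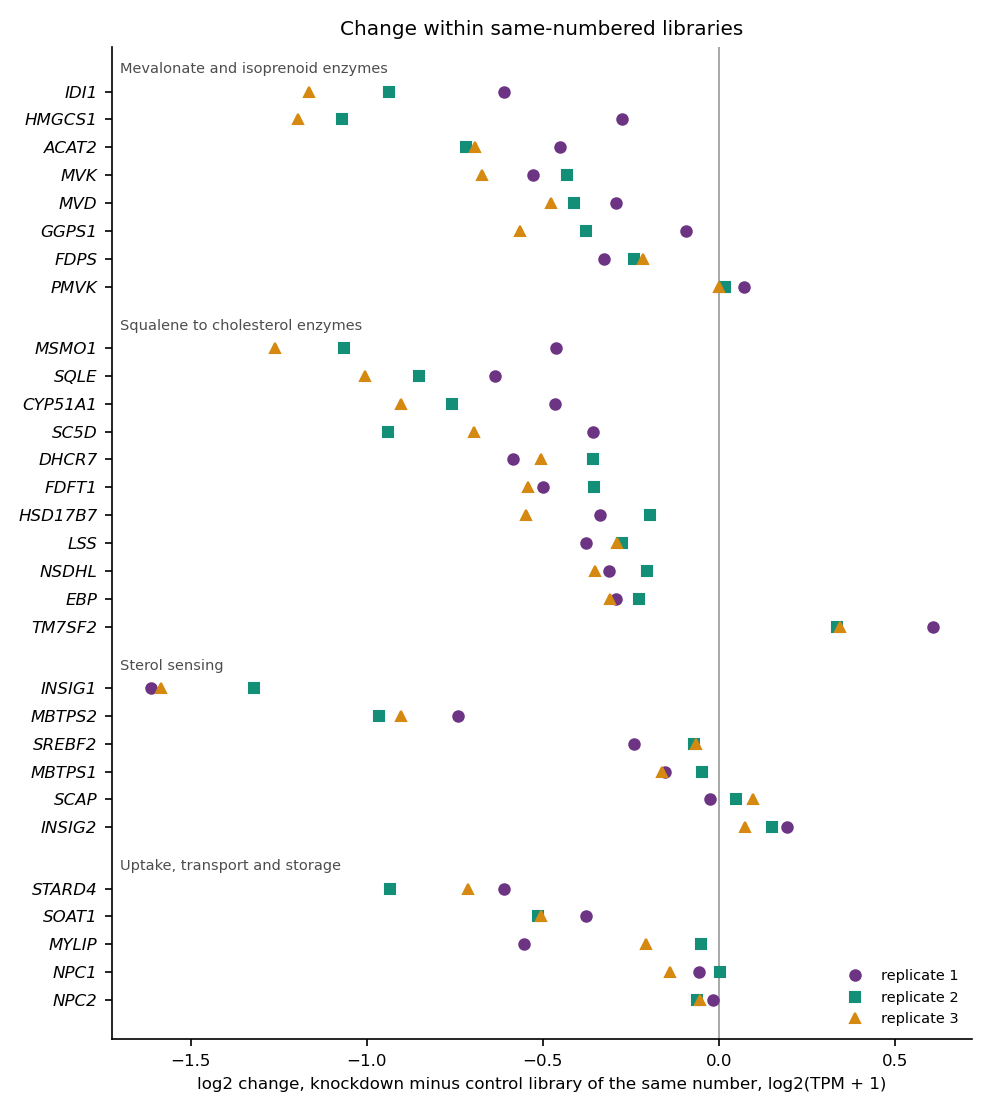
Log2 change of each of the 30 genes within same-numbered libraries (knockdown minus control library of that number, log2(TPM + 1)), 1 point per replicate number, grouped by role. For 25 genes all 3 points lie left of 0, the replicate 1 point of IDI1, HMGCS1, MSMO1 and SQLE lies closest to 0, and the 3 points of INSIG1 lie close together.

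Within same-numbered libraries 25 of the 30 genes were lower in all 3 pairs, TM7SF2 and INSIG2 were higher in all 3, and PMVK, SCAP and NPC1 differed in sign between pairs. The share of all genes lower in every pair was not counted, so these counts only describe the list. The median change of all genes tested was -0.08, -0.07 and -0.11 in pairs 1, 2 and 3. The size of the change depended on the replicate number for many enzymes. HMGCS1 changed by -0.28, -1.07 and -1.20 in pairs 1, 2 and 3, MSMO1 by -0.46, -1.06 and -1.26, and IDI1 by -0.61, -0.94 and -1.17. Of the 25 genes lower in every pair, pair 1 had the smallest change in 13 and the largest in 6. For the 19 enzymes the median change was -0.36, -0.38 and -0.55 in pairs 1, 2 and 3.

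The GC content of transcripts moved with the fold change across the whole table. Spearman's rho between the GC content of the longest transcript and the log2 fold change was 0.642 over 13159 genes and 0.505 over the 30 genes, across genes that share the same 6 libraries and are not independent replicates. With all genes split by GC content into 10 bins of equal size, the median log2 fold change ran from -0.43 in the lowest bin to 0.13 in the highest. The 30 genes spread over GC contents of 34.2% to 65.6%. Of them 26 lay below the median of their own bin, including 17 of the 19 enzymes, and TM7SF2, INSIG2, GGPS1 and NPC2 lay above it. HMGCS1, IDI1, MSMO1, MBTPS2 and STARD4 are poor in GC, in a range where most genes were lower, whereas MVK, MVD, DHCR7 and LSS are rich in GC, in a range where most genes were higher.

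**Figure D4:**
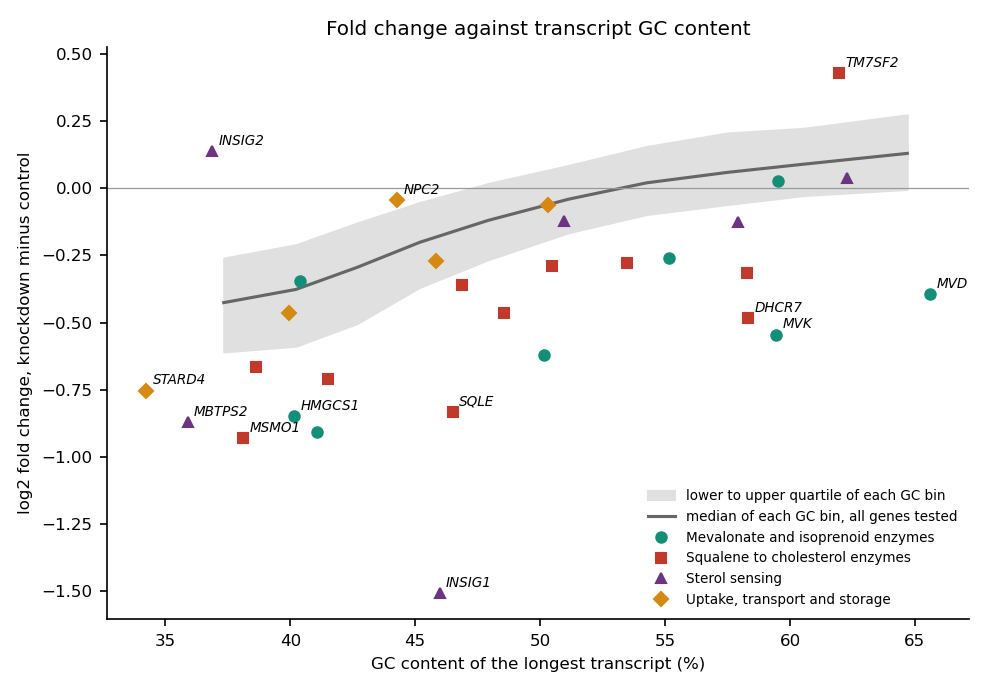
Log2 fold change (knockdown minus control, vertical axis) against the GC content of the longest transcript in percent (horizontal axis) for the 30 genes, with the median of each of the 10 GC bins of all genes tested as a line and the span from the lower to the upper quartile in grey. Both rise to the right, INSIG1 lies far below the line, and TM7SF2, INSIG2, GGPS1 and NPC2 lie above it.

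With each library's GC trend removed, the median log2 fold change of the 30 genes was -0.30 and that of all genes was -0.01. INSIG1 was then at -1.32, SQLE at -0.67, MVK at -0.65, DHCR7 at -0.58, MVD at -0.55 and IDI1 at -0.54. The values of the genes poor in GC came closer to 0, with HMGCS1 at -0.46, MSMO1 at -0.51, MBTPS2 at -0.43, CYP51A1 at -0.36, STARD4 at -0.32 and SOAT1 at -0.07. INSIG2 moved up to 0.58, and PMVK, SCAP, GGPS1 and NPC2 changed sign. Without the block limma then called few genes in the whole table (2 lower and 3 higher, or 0.0152% and 0.0228%) and 0 of the 30. At an unadjusted p under 0.05 there were 16 of the 30, against 21% of all genes. With the block 16 were called lower, SREBF2 among them, against 13.2% of all genes, and 3, INSIG2, NPC2 and TM7SF2, were called higher, against 11.4% of all genes. INSIG1 was again past both thresholds, as was 0.152% of all genes.

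The study's mechanism runs through miR-345-5p, which cDCBLD2 can bind, so its sequence and its seed matches in these mRNAs are given. The seed, bases 2 to 8, is in capitals in the mature sequence, and its DNA match GAGTCAG is in capitals in the stretches of the transcripts (GRCh38, longest coding transcript of GENCODE release 29).
hsa-miR-345-5p: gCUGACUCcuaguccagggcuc
IDI1 3′ UTR, chr10:1040238-1040267 (-): actgtcctacaGAGTCAGgaaatattgtag
NPC2 3′ UTR, chr14:74479434-74479463 (-): ccacctattttGAGTCAGtatactagcagt
NPC1 coding sequence, chr18:23568917-23568946 (-): agccctcgacaGAGTCAGtttttgaatgtt
PMVK coding sequence, chr1:154925233-154925262 (-): tggacgatgctGAGTCAGaatgtggcctgg
SREBF2 coding sequence, chr22:41877404-41877953 (+), across an exon junction: tcctgtcattcGAGTCAGgttctgggggct

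A match stood in the coding sequence of 3 of the 30 genes (10%) and in the 3′ UTR of 2 (6.67%), against 12.7% and 11.03% of 11536 protein-coding genes tested. The transcript of INSIG1 held none in either region. Of the 5 genes with a match, IDI1 was at -0.91 on the log2 scale, and SREBF2, NPC1, NPC2 and PMVK lay between -0.13 and 0.03 with overlapping groups. The lowered enzymes other than IDI1 held no such match in these transcripts.

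Other genes of the pathway, which are not among the 30, were listed by function without sight of their values, although the knockdown's effect on sterol genes was known. They cover users of isoprenoids, helpers of sterol enzymes, proteins of sterol-dependent degradation, oxysterol and LXR genes, and further uptake and transfer proteins. Of 57 listed genes 51 were tested, and their median log2 fold change was -0.002, with 27 lower and 24 higher means. Limma called 0 of the 51 at an adjusted p under 0.05 without the block, where it called 0.629% of all genes lower and 0.25% higher. At an unadjusted p under 0.05 there were 11 of the 51, against 26.1% of all genes. Limma-voom on the recovered reads also called 0 of the 51, where it called 2% of all genes lower and 1.43% higher. With shares this low, a count of 0 says little about these genes. With the block 11 were lower and 7 were higher, against 25% and 9.94% of all genes.

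Among these other genes the 6 with the largest log2 fold changes are named. LRP1, a large endocytic receptor, was at 114, 159 and 227 TPM after knockdown and 74.6, 108 and 128 TPM in control cells. The groups overlapped, with a log2 difference of 0.66 (limma adjusted p of 0.209 without and 0.00471 with the block). GRAMD1A, which transfers cholesterol from the plasma membrane to the endoplasmic reticulum, was at 111, 141 and 151 TPM after knockdown and 83.8, 104 and 100.3 TPM in control cells. Its groups did not overlap, with a log2 difference of 0.47 (limma adjusted p of 0.106 without and 0.00533 with the block). LRP8, a lipoprotein receptor family member, was lower in every knockdown library, with a log2 difference of -0.49 (limma adjusted p of 0.104 without and 0.00787 with the block). RABGGTB, a subunit that attaches geranylgeranyl groups to Rab proteins, and PAQR3, a Golgi anchor of SCAP, had log2 fold changes of -0.45 and -0.41 with overlapping groups (limma adjusted p of 0.316 and 0.299 without and 0.0105 and 0.0427 with the block). With the GC trend removed RABGGTB was at -0.03 and PAQR3 at 0.03, and neither passed with the block (limma adjusted p of 0.611 and 0.853). LRP1 was then at 0.54, GRAMD1A at 0.34 and LRP8 at -0.35, and these passed with the block (limma adjusted p of 0.00564, 0.00762 and 0.0118). LBR, described above with TM7SF2, is the remaining gene of the 6.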

How the data were processed

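RNA of 6 HCCLM3-SR libraries, 3 per group by the sample labels, was analysed from TPM values per gene that the authors deposited. The submitters' processing notes name fastp 0.20.1, HISAT2 2.1.0, StringTie 2.0 and hg38, without their order. The annotation, strand and multimapping settings are not given in the sources used here, and 15 of the 30 genes share exon bases with another gene in GENCODE release 29. The authors' DESeq2 test needs counts and was not repeated.

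Limma 3.58.1 in R 4.3.3 with a mean-variance trend was run on log2(TPM + 1), for genes whose mean reached 1 TPM, with Benjamini-Hochberg adjustment over all genes tested. Calls used an adjusted p under 0.05 and, for both thresholds, a log2 fold change over 1 in size. The script was tested on simulated data. The replicate numbers in the titles were taken as pairs, because the correlation of deviations was over 0.1 for every number (r = 0.56, 0.343 and 0.362). Likeness of the libraries numbered 1 alone could also meet this rule, so the pairing of the others is an assumption.

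Reads were recovered with Python 3.11.15 as the smallest whole numbers in the ratio of a gene's values, which came out whole within 0.02 reads for 100% of the 17285 genes above 0 in every library. They are lower bounds, used to show counting depth and as the input of limma-voom, whose weights therefore rest on lower bounds. GC content came from GENCODE transcripts, matched for 25655 genes by symbol and 1530 by gene ID, with 11452 unmatched. It was removed per library by loess with a span of 0.5.

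The 30 genes and the other lists were chosen with earlier results of these data known. Values per library are given for the sensing genes and for the 3 genes with the largest log2 fold change in each other role, and of the other sterol genes the 6 with the largest are named. Alternatives were another pseudocount, filter and scaling, the replicate block, GC removal, limma-voom on recovered reads and leaving out each library. A fit without both libraries numbered 1 was chosen after seeing the data. Some sterol genes are not reported here.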

Additional observations from a re-analysis of the deposited data

How the results depend on the processing

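The median log2 fold change of the 30 genes lay between -0.44 and -0.30 over all 16 settings, and 24 of the 30 genes kept their sign in every setting. NPC1 and NPC2 turned sign under upper-quartile scaling and with limma-voom, PMVK, SCAP, GGPS1 and NPC2 with the GC trend removed, SREBF2 without knockdown replicate 1 and PMVK without control replicate 1. Counts of calls moved far more. The replicate block raised the lower calls among the 30 from 3 to 20, where the share of all genes went from 0.629% to 25%. The higher calls rose from 0 to 1, where that share went from 0.25% to 9.94%. The block gave 11 lower and 7 higher other sterol genes. With the GC trend removed the lower calls were 0 (0.0152% of all genes), with 0 past both thresholds. With the GC trend removed and the replicate block 16 were lower and 3 higher, against 13.2% and 11.4% of all genes. That fit gave 4 lower and 7 higher other sterol genes. Limma-voom called 6 lower (2% of all genes), and limma-voom with the replicate block 19 lower, 2 higher and 2 past both thresholds (21.7%, 18.3% and 1.01% of all genes), with 9 lower and 16 higher other sterol genes. Without a filter on low genes, where 25278 genes were tested, 0 were called, with 18 at an unadjusted p under 0.05 (16.5% of all genes). Leaving out 1 library gave 0 to 19 lower and 0 to 5 past both thresholds. Among the other sterol genes it gave 0 to 6 lower and 0 to 3 higher. Every call of any gene came from the fit without knockdown replicate 1 (19.8% of all genes lower, 4.64% higher, 2.89% past both thresholds). The block without both libraries numbered 1 gave 20 lower (28% of all genes), 1 higher (11.3%) and 4 past both thresholds (1.77%). It also gave 12 lower and 8 higher other sterol genes. The causes were not tested. Groups of 3 libraries cannot reach an exact permutation p under 0.1, so the calls rest on limma's shared estimate of spread. STARD4 and HSD17B7 are limited by low read numbers.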
